A study of Mus musculus with 12 samples.

Results

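The transforming growth factor beta (TGF-beta) ligand genes Tgfb1, Tgfb2 and Tgfb3 and the type 2 receptor gene Tgfbr2 were followed across 4 groups of mouse cells on 12 Affymetrix whole-transcript arrays, 3 per group. The members were chosen by gene symbol, each is read by 1 probe set, and they are 4 of the 9539 genes that could be tested. Day-1 cells were passage 3 fibroblasts taken from mice that descend from Oct4 and Tet1 iPS cells. They had spent 1 day with doxycycline, the inducer of the factors, in medium for ES cells. The iPS cells were 1 line at passage 10 induced with Oct4 and Tet1, so its 3 arrays do not sample other lines. The R1 line, at passage 20 and of strain 129, provided the ES cells, with no introduced factors named in the labels. Fibroblasts were at passage 3, with no treatment named in their labels. The labels of day-1 and iPS cells give the background OG2-GFP/Rosa26-M2rtTA, an Oct4 promoter reporter together with a doxycycline-responsive activator at the Rosa26 locus, and those of the 3 fibroblast samples end in M2rtTA, M3rtTA and M4rtTA. Both pluripotent lines grew on mitomycin C treated feeder fibroblasts with LIF, and a settling step to clear feeders is described for the ES cells. No label states whether a group's 3 arrays stand for 3 cultures, and p-values therefore cover only the spread among these samples, which may be technical.

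TGF-beta ligands are secreted as dimers held inactive by their own propeptide, tethered to matrix by latent TGF-beta binding proteins and set free by integrins, thrombospondin or proteases. A freed ligand binds the type 2 receptor, which recruits and phosphorylates the type 1 receptor, and this in turn phosphorylates the transcription factors Smad2 and Smad3. In fibroblasts the pathway drives matrix and contractile genes, it favours the mesenchymal state, and blocking the type 1 receptor with inhibitors is known to help reprogramming of mouse fibroblasts.

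The 250 bases before the RefSeq start site of Tgfb1, Tgfb2 and Tgfbr2 are shown (RefSeq, build GRCm38.p6), because Tgfb1 and Tgfb2 differed in opposite directions between the pluripotent lines and Tgfbr2, the receptor of both, differed from fibroblasts in every other group. They lie at chr7:25686752-25687001 on the plus strand, chr1:186705990-186706239 on the minus strand and chr9:116175364-116175613 on the minus strand. Of the 4 members, 3 matched the promoter table, Tgfb3 being the other. Capitals mark matches to the searched motifs, which are the GC box GGGCGG in Tgfb1 (CCGCCC where it lies on the other strand), and the Smad motif CAGACA and the TATA motif TATAAA in Tgfb2.
Tgfb1: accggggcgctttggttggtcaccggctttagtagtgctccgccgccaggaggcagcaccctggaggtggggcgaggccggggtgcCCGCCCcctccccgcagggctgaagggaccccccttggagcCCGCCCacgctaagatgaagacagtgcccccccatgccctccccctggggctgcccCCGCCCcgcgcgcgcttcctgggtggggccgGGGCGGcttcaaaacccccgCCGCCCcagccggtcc
Tgfb2: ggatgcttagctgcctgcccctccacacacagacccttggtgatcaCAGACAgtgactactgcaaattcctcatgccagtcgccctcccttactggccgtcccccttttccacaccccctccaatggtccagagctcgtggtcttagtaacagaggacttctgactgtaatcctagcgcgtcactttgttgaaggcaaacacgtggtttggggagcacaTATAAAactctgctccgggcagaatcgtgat
Tgfbr2: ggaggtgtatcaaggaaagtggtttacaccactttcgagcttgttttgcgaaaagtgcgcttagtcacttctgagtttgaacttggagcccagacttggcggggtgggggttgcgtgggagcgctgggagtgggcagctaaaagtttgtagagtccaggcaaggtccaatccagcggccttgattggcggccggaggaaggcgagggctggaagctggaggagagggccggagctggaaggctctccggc
G and C make up 75.2% of the Tgfb1 sequence, 53.6% of that of Tgfb2 and 58.4% of that of Tgfbr2, against a median of 52.4% over the same stretch of all 32851 promoters in the table. Over 300 bases, reaching 50 past the start and read on both strands, Tgfb1 held 6 GC boxes, of which the one past the start is not printed, and a GC box occurs in 35.7% of all promoters. Tgfb2 held 1 Smad motif, found in 21.0% of promoters, and 1 TATA motif, found in 13.6% and searched for after the sequences were seen. The AP-1 motifs TGACTCA and TGAGTCA (5.2% of promoters), the CRE TGACGTCA (1.79%) and the octamer ATGCAAAT (1.74%) were in none of these 3 windows, and none of the 6 motifs was in that of Tgfbr2.

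Levels are log2 values per probe set, so a step of 1 is a 2-fold change, and they are compared for the same gene between groups, never between genes. A gene is called higher or lower where limma's adjusted p is under 0.05 and the log2 difference is at least 1. The median of an array lay between 7.89 and 8.29. Pou5f1, which encodes the induced factor Oct4, stood at 11.73 to 11.85 in day-1 cells, 11.96 to 12.04 in iPS cells, 12.36 to 12.37 in ES cells and 4.91 to 5.24 in fibroblasts. The 12 fibroblast markers averaged at least 10.72 on each fibroblast array, and the 12 pluripotency markers 11.42 to 11.45 on iPS arrays and 11.68 to 11.78 on ES arrays, which fits the labelled cell types. The labelled day-1 cells kept a fibroblast marker average of 10.51 to 10.61. In bulk samples fewer cells of a type and less RNA per cell cannot be told apart.

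**Figure D1:**
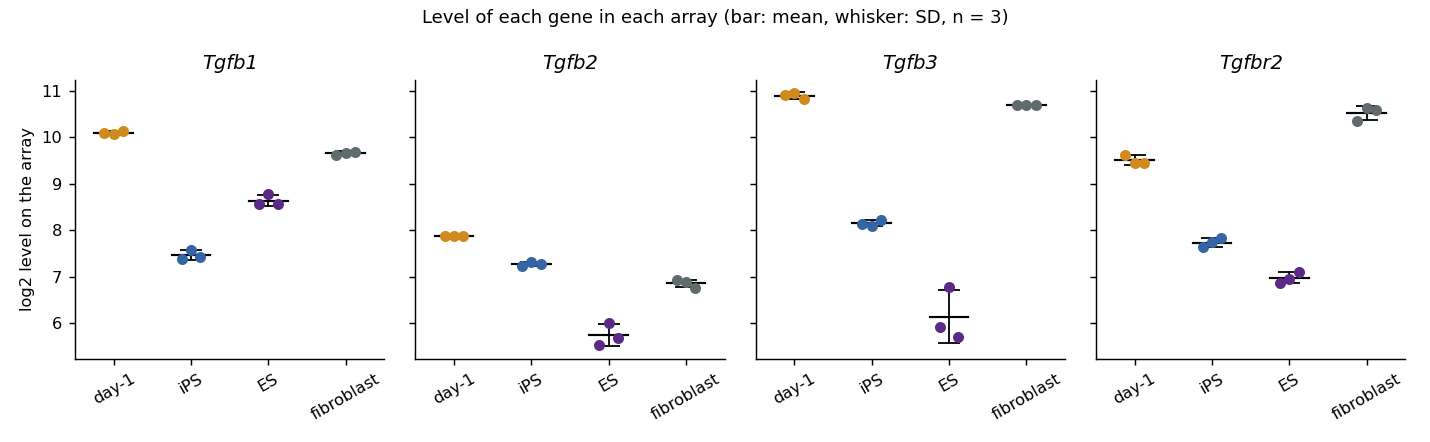
Log2 level of each gene (y axis) on each of the 3 arrays of day-1, iPS, ES and fibroblast cells (x axis), with the group mean as a bar and the SD as a whisker. iPS arrays are the lowest for Tgfb1 (7.38 to 7.58), ES arrays are the lowest for the other genes, and levels of different genes are not comparable.

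Tgfb1, the ligand made by most cell types and the best known driver of fibroblast activation, was lowest in iPS cells and highest in day-1 cells. Its log2 level was 10.09, 10.06 and 10.14 on the day-1 arrays, 7.38, 7.58 and 7.43 on the iPS arrays, 8.56, 8.78 and 8.57 on the ES arrays, and 9.61, 9.67 and 9.69 on the fibroblast arrays. No 2 groups overlap, and the 3 iPS arrays all lie below the 3 ES arrays. Against fibroblasts the gene was 4.57-fold lower in iPS cells (log2 difference -2.19 ± 0.08, SE; adjusted p = 1.69e-11) and 2.03-fold lower in ES cells (-1.02 ± 0.08; adjusted p = 2.55e-08). The ES difference lies at the 2-fold minimum, and its call ends with quantile normalization (-0.78), centred arrays (-0.68), or without ES replicate 1 (-0.98) or 3 (-0.99). Day-1 cells stood 0.44 ± 0.08 above fibroblasts (adjusted p = 4.33e-04), a difference under the 2-fold minimum. In iPS cells Tgfb1 fell to 7.47 ± 0.11, against 8.64 ± 0.12 in ES cells (SD, n = 3 each), a 2.25-fold lower level (-1.17 ± 0.08, SE; adjusted p = 1.27e-07). Every neighbouring pair in the order day-1, fibroblast, ES and iPS thus differed beyond the array spread.

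Tgfb2, a ligand that binds the type 2 receptor poorly without the co-receptor betaglycan, was the one ligand gene that iPS cells did not have at a called lower level than fibroblasts. Its log2 level was 7.89, 7.88 and 7.87 on the day-1 arrays, 7.24, 7.31 and 7.28 on the iPS arrays, 5.54, 6.0 and 5.69 on the ES arrays, and 6.93, 6.88 and 6.77 on the fibroblast arrays. The 4 groups do not overlap, with day-1 cells at the top, iPS cells next, then fibroblasts, and ES cells at the bottom. By mean level Tgfb2 is among the genes left out by the filter on low genes. The closeness of its ES values to array background was not tested, and the differences below that involve ES cells use those values. The gene rose 2.03-fold in day-1 cells (1.02 ± 0.10, SE; adjusted p = 2.47e-06), and quantile normalization (0.95) or the fit without fibroblast replicate 3 (0.97) takes that difference under the minimum. iPS cells stood 0.41 ± 0.10 above fibroblasts (adjusted p = 0.00128; 0.67 with centred arrays), not a call, whereas ES cells had a 2.17-fold lower level (-1.11 ± 0.10; adjusted p = 1.15e-07), a call that ends with centred arrays (-0.77). Between the pluripotent lines Tgfb2 averaged 7.28 ± 0.04 in iPS cells and 5.75 ± 0.24 in ES cells (SD, n = 3 each), which is 2.89-fold higher in iPS cells (1.53 ± 0.10, SE; adjusted p = 9.65e-08). Between iPS and day-1 cells the difference was -0.60 ± 0.10 (adjusted p = 6.00e-05), under the minimum, and it was -0.36 with quantile normalization and -0.35 with centred arrays.

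Tgfb3, the ligand known for its role in palate closure and in wound repair, was the member with the widest range, high in both fibroblast groups and low in ES cells. Its log2 level was 10.90, 10.96 and 10.81 on the day-1 arrays, 8.14, 8.09 and 8.22 on the iPS arrays, 5.93, 6.79 and 5.71 on the ES arrays, and 10.69, 10.70 and 10.69 on the fibroblast arrays. The day-1 arrays all lie above the fibroblast arrays by a small margin, and ES replicate 2 stands apart from the other ES arrays. How close the ES values of Tgfb3 lie to array background was not tested. The gene was 5.83-fold lower in iPS cells than in fibroblasts (-2.54 ± 0.20, SE; adjusted p = 3.09e-08) and 23.4-fold lower in ES cells (-4.55 ± 0.20; adjusted p = 6.87e-11). In iPS cells it averaged 8.15 ± 0.06, against 6.14 ± 0.57 in ES cells (SD, n = 3 each), a 4.02-fold higher level (2.01 ± 0.20, SE; adjusted p = 2.88e-06). Without ES replicate 2 that difference was 2.33. Between day-1 cells and fibroblasts it was 0.20 ± 0.20 (adjusted p = 0.414, 95% interval -0.23 to 0.62), and the spread shared over all groups includes ES replicate 2. Without that array the adjusted p was 0.0363 and with only the compared groups in the fit 0.0294, at the same difference of 0.20.

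Tgfbr2, the receptor that binds the ligand first and is needed for the response to all 3 of them, had the order fibroblast, day-1, iPS and ES cells. Its log2 level was 9.62, 9.46 and 9.45 on the day-1 arrays, 7.63, 7.74 and 7.83 on the iPS arrays, 6.87, 6.96 and 7.11 on the ES arrays, and 10.34, 10.62 and 10.59 on the fibroblast arrays. None of the groups overlaps with its neighbour. In day-1 cells the gene fell 2.00-fold (-1.003 ± 0.10, SE; adjusted p = 2.00e-06), a difference that sits on the minimum. Quantile normalization (-0.96), or the fit without day-1 replicate 2 (-0.97) or 3 (-0.97) or without fibroblast replicate 2 (-0.95) or 3 (-0.97), ends that call. It was 6.88-fold lower in iPS cells than in fibroblasts (-2.78 ± 0.10; adjusted p = 1.17e-11) and 11.6-fold lower in ES cells (-3.53 ± 0.10; adjusted p = 1.07e-12). Between the pluripotent lines the level was 7.73 ± 0.10 in iPS cells and 6.98 ± 0.12 in ES cells (SD, n = 3 each), a difference of 0.75 ± 0.10 (SE; adjusted p = 2.55e-05) that did not reach the 2-fold minimum.

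The comparison of day-1 cells with fibroblasts covers doxycycline, the change to ES medium and the source of the fibroblasts together, and there 1 member rose, 1 fell and 2 were not called. Of all genes 3.46% were called higher, 4.33% lower and 7.79% in either direction. In iPS cells 3 of the 4 members were lower than in fibroblasts, where 29.6% of genes were called lower and 51.3% in either direction. In ES cells all 4 were lower than in fibroblasts, against 32.1% of genes lower and 55.6% called. Set against day-1 cells, which carry the same background as the iPS line, 3 members were lower in iPS cells (26.6% of genes lower, 44.2% called) and 4 in ES cells (29.5% lower, 49.9% called). No member was called higher in these last 4 comparisons, where 21.8%, 23.4%, 17.6% and 20.4% of genes were. Tgfb1 differed by -2.63 ± 0.08 between iPS and day-1 cells, and Tgfb3 by -2.74 ± 0.20 between iPS and day-1 cells and by -4.75 ± 0.20 between ES and day-1 cells. These comparisons share arrays and are not independent of each other.

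iPS cells against ES cells gave 2 members higher, Tgfb2 and Tgfb3, 1 lower, Tgfb1, and Tgfbr2 not called, where 4.44% of all genes were called higher, 2.45% lower and 6.9% in either direction. In size, 99.2% of genes had a smaller absolute difference than Tgfb3 in this comparison, 98.0% a smaller one than Tgfb2 and 95.4% a smaller one than Tgfb1. Strain, passage and line differ together between these groups.

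In all 24 comparisons of a member the arrays of the 2 groups do not overlap, and most genes of the table do the same. Against fibroblasts, 67.3% of genes had no overlap for day-1 cells, 94% for iPS cells and 94% for ES cells, with 61.5% between iPS and ES cells, and 94% and 93.8% for iPS and ES cells against day-1 cells. With no fold minimum 23 of the 24 member comparisons passed, Tgfb3 in day-1 cells being the other. Of all genes 57.1%, 94.2% and 94.9% passed at that setting in day-1, iPS and ES cells against fibroblasts, 57.7% between iPS and ES cells, and 92.8% and 93.4% in iPS and ES cells against day-1 cells.

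**Figure D2:**
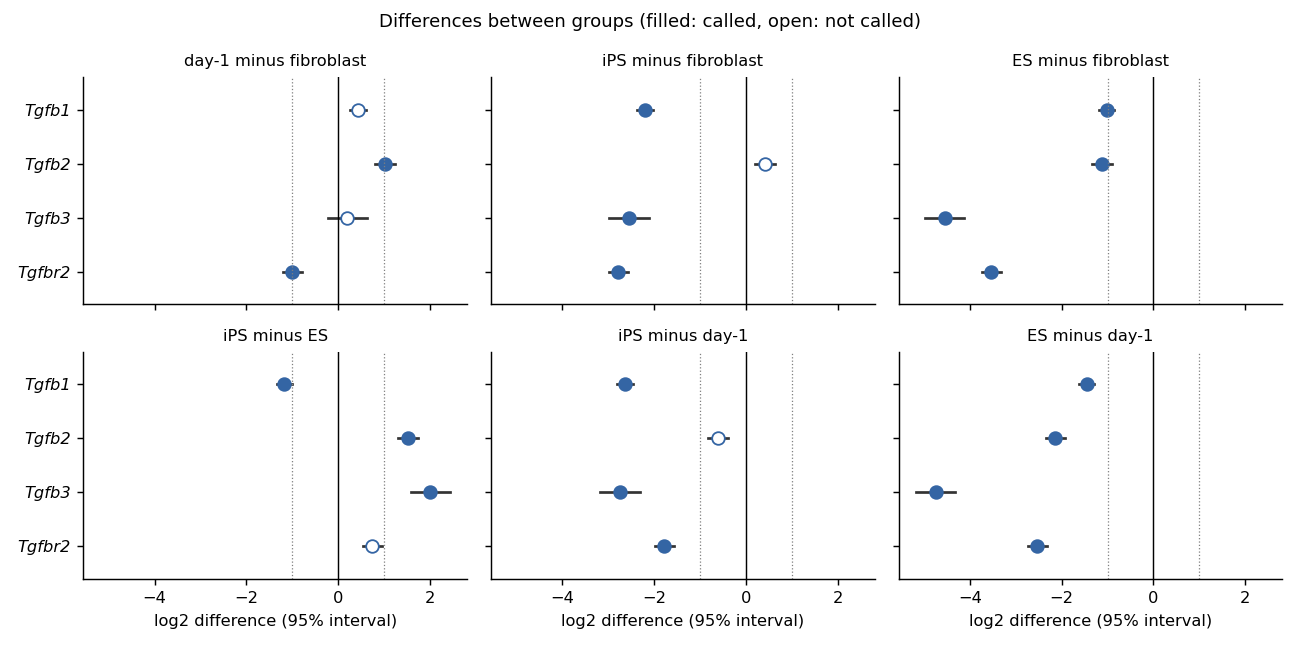
Log2 difference between groups (x axis, point, with its 95% interval from limma as a line) for the 4 genes (y axis) in 6 comparisons, with dotted lines at -1 and 1 and open points for differences that were not called. Tgfb1 lies left of 0 and the other 3 genes right of 0 in iPS minus ES cells, from -1.17 for Tgfb1 to 2.01 for Tgfb3.

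The ratio of 2 members within an array shows whether they changed by unequal amounts, and a constant shift of the array on the log2 scale does not alter it. For Tgfb1 over Tgfb2 the log2 ratio changed by -2.61 in iPS cells against fibroblasts and by -0.58 in day-1 cells, while in ES cells it differed by 0.09 with overlapping arrays. Tgfb1 over Tgfb3 moved by 3.53 in ES cells against fibroblasts, and by 0.35 in iPS cells. Tgfb2 over Tgfb3 moved by 2.96 in iPS cells and by 3.43 in ES cells, and between the pluripotent lines its arrays overlap (-0.48, iPS minus ES). Tgfb3 over Tgfbr2 moved by 0.24 in iPS cells and by -1.02 in ES cells against fibroblasts. Where these ratios use ES values of Tgfb2 or Tgfb3, the closeness of those values to array background was not tested. With 3 arrays against 3 the exact two-sided permutation test cannot give a p under 0.1. None of the 36 ratio changes could therefore pass, and every adjusted p is at least 0.109.

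**Figure D3:**
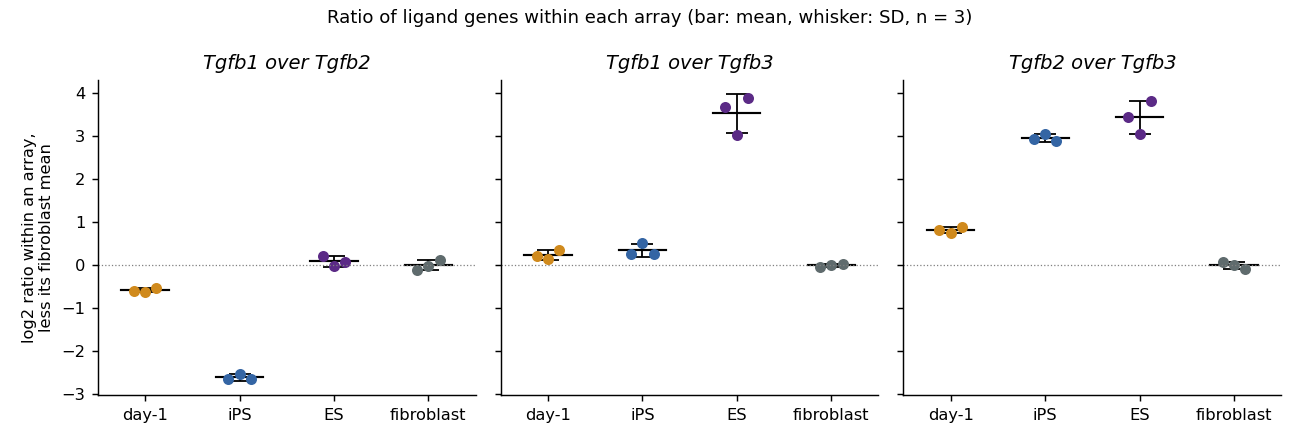
Log2 ratio of 2 ligand genes within each array (y axis, less the mean ratio in fibroblasts) for day-1, iPS, ES and fibroblast arrays (x axis), with the mean as a bar and the SD as a whisker. Tgfb1 over Tgfb2 is lowest in iPS arrays, at a mean of -2.61 from fibroblasts, and Tgfb1 over Tgfb3 is highest in ES arrays, at 3.53.

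Among the other receptors, betaglycan, Tgfbr3, which presents ligand to the type 2 receptor, had the largest fall from fibroblasts in both pluripotent lines. Against day-1 cells the co-receptor Nrp1 had larger falls (-3.36 ± 0.19 in iPS cells, -4.24 ± 0.19 in ES cells) than Tgfbr3 (-2.75 ± 0.07 in iPS cells, -2.51 ± 0.07 in ES cells). The log2 level of Tgfbr3 was 9.72, 9.65 and 9.71 on the day-1 arrays, and 6.97, 6.85 and 7.01 on the iPS arrays. It was 7.23, 7.17 and 7.15 on the ES arrays, and 11.13, 11.14 and 11.21 on the fibroblast arrays. For Tgfbr3 both fibroblast groups lie far above both pluripotent lines, and day-1 cells lie below fibroblasts. Tgfbr3 was 2.76-fold lower in day-1 cells than in fibroblasts (-1.46 ± 0.07, SE; adjusted p = 3.10e-09), 18.6-fold lower in iPS cells and 15.7-fold lower in ES cells. In day-1 cells it was the sole gene called among the 15 measured receptors and co-receptors (6.67%, against 7.79% of all genes). In iPS cells 8 of the 15 fell and 2 rose against fibroblasts (66.7%, against 51.3% of all genes), with a median of -1.21 against -0.35 over all genes. In ES cells 8 fell and 3 rose (73.3%, against 55.6%; median -1.04). The falls in iPS cells included the co-receptor Nrp1 (-2.99 ± 0.19), the BMP type 2 receptor Bmpr2 (-2.98 ± 0.11) and the BMP type 1 receptor Bmpr1b (-2.50 ± 0.16). The rises were those of the Nodal co-receptor Tdgf1 (7.41 ± 0.08) and the activin type 2 receptor Acvr2b (1.30 ± 0.11), joined in ES cells by Amhr2 (1.01 ± 0.08). Acvrl1, a type 1 receptor best known in endothelium, differed by -1.34 ± 0.07 in iPS cells and by -1.04 ± 0.07 in ES cells, and the second call ends with quantile normalization (-0.70), centred arrays (-0.70) or without ES replicate 2 (-0.996). Endoglin, Eng, a co-receptor, differed by -1.21 ± 0.10 in iPS cells, a call that ends with quantile normalization (-0.995) or centred arrays (-0.96), and by -0.86 ± 0.10 in ES cells, not a call. Between iPS and ES cells Cd109, a surface protein that binds TGF-beta, was the sole receptor-list gene called (1.51 ± 0.07), and without ES replicate 2 there were 2. The share called was 6.67%, against 6.9% of all genes. The type 1 receptor Tgfbr1 was not analysed here.

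Of 21 measured genes that store and activate the ligands, 15 fell and 1 rose in iPS cells against fibroblasts (76.2%, against 51.3% of all genes), and 5 were not called. In ES cells 17 fell and 1 rose (85.7%, against 55.6%), and 3 were not called. The list's median was -1.81 in iPS cells and -2.62 in ES cells, against -0.35 over all genes in each. The largest falls in iPS cells were those of thrombospondin 2, Thbs2 (-3.50 ± 0.18), of Lrrc32, which holds latent TGF-beta at the cell surface (-3.34 ± 0.17), of the binding protein Ltbp2 (-3.13 ± 0.12) and of the protease Mmp2 (-3.13 ± 0.11). In ES cells Lrrc32 fell by 4.69 ± 0.17 on the log2 scale, ahead of Thbs2 (-4.08 ± 0.18), Mmp2 (-3.62 ± 0.11) and the plasminogen activator Plat (-3.61 ± 0.12). The exceptions were the transglutaminase Tgm2, higher in iPS cells (1.40 ± 0.15), and the binding protein Ltbp4, higher in ES cells (1.503 ± 0.07). Between iPS and ES cells 6 of the 21 were higher and 0 lower (28.6%), with a median of 0.77 against 0.01 over all genes. Of all genes 4.44% were called higher and 6.9% in either direction. Of the 6, Mmp14 and Itgav lie on the minimum, and 4 were higher with centred arrays or without iPS replicate 1 and 9 without ES replicate 2. With no fold minimum limma gave 16 higher and 3 lower, and with quantile normalization, centred arrays, or without iPS replicate 2 or ES replicate 1, 1 was called lower. The 4 largest were the fibrillin gene Fbn2 (1.68 ± 0.14), thrombospondin 1, Thbs1 (1.53 ± 0.19), Lrrc32 (1.35 ± 0.17) and the urokinase gene Plau (1.34 ± 0.13). In day-1 cells Plau rose (1.30 ± 0.13) and the protease gene Mmp9 fell (-1.31 ± 0.20), and 19 of the 21 were not called. The share called was 9.52%, against 7.79% of all genes.

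Among the 7 pathway lists, that of secreted binders had the highest share of called genes between iPS and ES cells. It holds proteoglycans and other binders of TGF-beta or of related ligands such as activin. Of 11 measured, 7 were higher in iPS cells and 1 lower (72.7%, against 6.9% of all genes; median 1.11). Asporin, Aspn, was higher by 3.32 ± 0.26, fibulin 5, Fbln5, by 2.54 ± 0.11 and the protease Htra1 by 2.23 ± 0.19, while decorin, Dcn, a proteoglycan that binds TGF-beta, was lower (-2.08 ± 0.12). Dcn averaged 11.50 in day-1 cells, 7.31 in iPS cells, 9.39 in ES cells and 12.92 in fibroblasts, so that iPS cells had less of it than ES cells, the order seen for Tgfb1. All 11 were lower in ES cells than in fibroblasts, with a median of -3.21. That is 100%, where 32.1% of all genes were called lower and 55.6% in either direction. In iPS cells 9 of 11 were lower, with a median of -2.05, Htra1 and Vasn not being called. That is 81.8%, where 29.6% of all genes were called lower and 51.3% in either direction. In day-1 cells Dcn fell (-1.42 ± 0.12) and the activin inhibitor follistatin, Fst, rose (1.15 ± 0.11), or 18.2% of the list against 7.79% of all genes.

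Of 10 measured Smads and partners, 3 fell in iPS cells against fibroblasts and 1 rose (40%, against 51.3% of all genes), and 2 fell in ES cells and 1 rose (30%, against 55.6%). Smad3, the carrier of the TGF-beta signal that was measured, fell in iPS cells (-1.96 ± 0.10) and ES cells (-2.05 ± 0.10), as did the endocytic adaptor Dab2 (-2.69 ± 0.11 and -2.31 ± 0.11). Foxh1, which pairs with Smads in Nodal signalling, rose in both (2.49 ± 0.16 and 2.43 ± 0.16). Smad5, a carrier of BMP signals, fell in iPS cells (-1.01 ± 0.08), a call that ends with quantile normalization (-0.78), centred arrays (-0.75), or without iPS replicate 1 (-0.99) or fibroblast replicate 3 (-0.96). In day-1 cells Smad9, another BMP Smad, rose (1.58 ± 0.07), and 9 of the 10 were not called (10% called, against 7.79% of all genes). The coactivator Ep300 alone was called between iPS and ES cells (-1.18 ± 0.10), or 10% of the list against 6.9% of all genes. Smad2 and Smad4 were not analysed here.

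Of 10 measured feedback genes and co-repressors, 4 fell and 1 rose in iPS cells, and 4 fell and 1 rose in ES cells, against fibroblasts (50% each, against 51.3% and 55.6% of all genes), and 2 fell with centred arrays in each. Pmepa1, a target gene that restrains Smads, fell in iPS cells (-2.12 ± 0.15) and ES cells (-2.57 ± 0.15), as did Ldlrad4, another inhibitor of Smad activation (-2.35 ± 0.14 and -2.41 ± 0.14). The co-repressor Tgif2 rose in both (1.36 ± 0.10 and 1.48 ± 0.10). In day-1 cells the inhibitory Smad6 rose (1.04 ± 0.10), a call that ends without fibroblast replicate 2 (0.96). It was the sole call there (10%, against 7.79% of all genes). Between iPS and ES cells limma called 0 of the 10, against 6.9% of all genes (4 higher and 1 lower with no fold minimum). Values there ran from Stub1, a ubiquitin ligase (0.45), to Ski, a co-repressor (-0.50).

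Textbook TGF-beta target genes separated the pluripotent lines. In ES cells 23 of 25 measured targets were lower than in fibroblasts and 0 higher, with a median of -2.72. That is 92% of the list, where 32.1% of all genes were called lower and 55.6% in either direction. Bhlhe40 (-0.90) and Plek2 (0.64) were not called. In iPS cells 13 of 25 were lower and 0 higher, with a median of -1.15. That is 52%, where 29.6% of all genes were called lower and 51.3% in either direction. With no fold minimum limma gave 21 lower and 1 higher in iPS cells against fibroblasts, and 1 higher in ES cells. Between the lines 14 of 25 were higher in iPS cells and 0 lower, with a median of 1.16. That is 56%, where 4.44% of all genes were called higher and 6.9% in either direction. With no fold minimum 19 were higher and 0 lower. Lysyl oxidase, Lox, which cross-links collagen, differed by 3.03 ± 0.27, smooth muscle actin, Acta2, by 2.82 ± 0.20, periostin, Postn, by 2.74 ± 0.24 and the collagen gene Col1a2 by 2.60 ± 0.12. In that order their SD was 0.80, 0.60, 0.65 and 0.31 in ES cells and 0.07, 0.04, 0.04 and 0.02 in iPS cells. The SE of a difference uses a spread shared over all groups. Col1a2 averaged 11.98 in iPS cells, 9.38 in ES cells and 11.78 in fibroblasts. Connective tissue growth factor, Ccn2, a direct target, averaged 11.90 in iPS cells, 9.84 in ES cells and 11.79 in fibroblasts, and iPS cells differed from fibroblasts by 0.19 and 0.10, neither a call. Other targets were low in both pluripotent lines, among them the transcription factors Snai2 (-3.43 ± 0.08 for iPS cells, -4.09 ± 0.08 for ES cells) and Snai1 (-3.33 ± 0.14 and -3.20 ± 0.14), and Tgfb1i1 (-3.18 ± 0.09 and -3.52 ± 0.09), a focal adhesion gene induced by TGF-beta. In day-1 cells Tgfbi, a matrix gene named for its induction by TGF-beta, was the sole target called (1.21 ± 0.15). That is 4% of the list, against 7.79% of all genes, and 24 were not called (median 0.11 against 0.05 over all genes).

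Ligands of the other families of the superfamily had no common direction. Of 11 measured, 5 rose and 4 fell in iPS cells against fibroblasts (81.8%, against 51.3% of all genes). In ES cells 4 rose and 4 fell (72.7%, against 55.6%), with 2 lower there after quantile normalization or with centred arrays. Gdf3 (5.23 ± 0.10 and 4.83 ± 0.10), Lefty2, an inhibitor of Nodal (4.99 ± 0.23 and 3.18 ± 0.23), and Nodal (3.86 ± 0.11 and 2.77 ± 0.11) rose in iPS and ES cells, while the activin subunit gene Inhba fell (-2.73 ± 0.32 and -3.58 ± 0.32). Inhbb, another activin subunit gene, fell in day-1 cells (-1.23 ± 0.15), the sole call of the list there (9.09%, against 7.79% of all genes). Between iPS and ES cells Lefty2 (1.81 ± 0.23) and Nodal (1.09 ± 0.11) were higher and Inhbb lower (-1.07 ± 0.15). Together they are 27.3% of the list, against 6.9% of all genes. The call of Inhbb ends without ES replicate 2 (-0.94) or iPS replicate 1 (-0.91). With centred arrays Nodal differed by 0.996 and was not called.

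**Figure D4:**
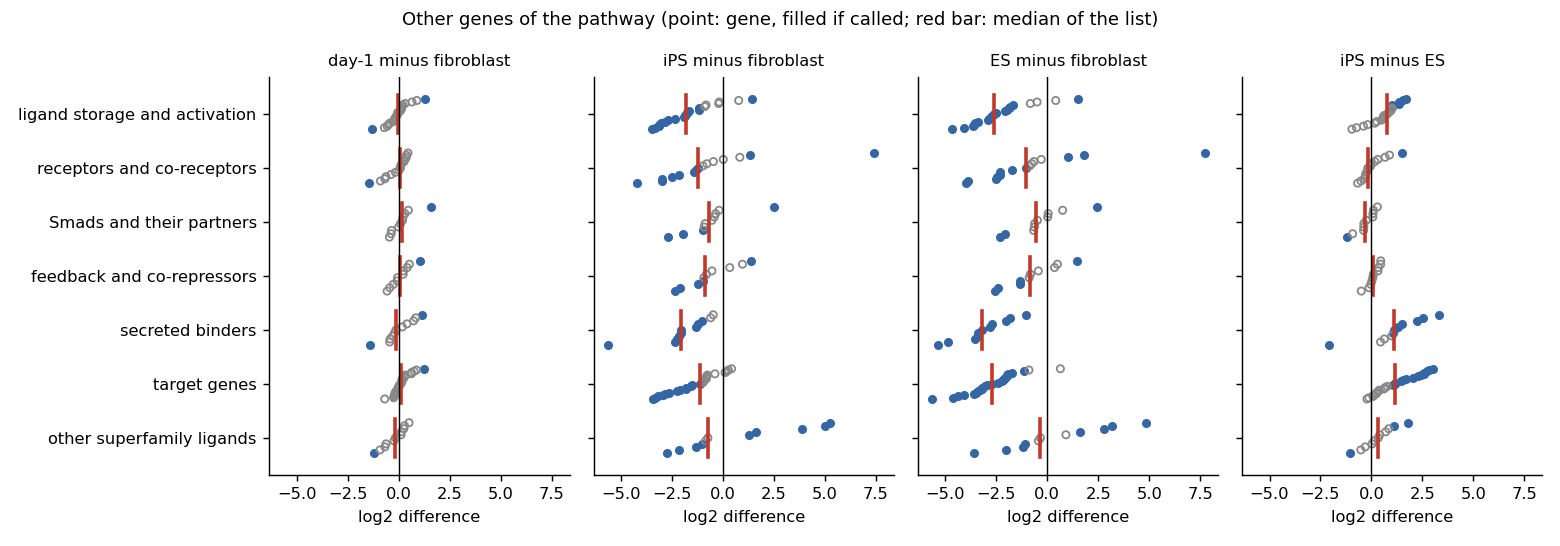
Log2 difference (x axis) of each measured gene of 7 pathway lists (y axis) in 4 comparisons, with filled points for called genes, open points for the others and a red bar at the median of the list. The medians of the target and secreted binder lists lie at -2.72 and -3.21 in ES minus fibroblast cells and at 1.16 and 1.11 in iPS minus ES cells.

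Markers of fibroblasts, which the feeder cells also express, differed in both directions between iPS and ES cells. Of the 12 fibroblast markers, 5 were higher in iPS cells (Col1a1, Col1a2, Col3a1, Col5a2 and Postn), Dcn was lower and 6 were not called. The share called was 50%, against 6.9% of all genes. The fibroblast marker average was 8.31 to 8.43 on iPS arrays and 7.35 to 7.69 on ES arrays, with ES replicate 2 the highest ES array, as it was for each of the 3 ligand genes. For the 9 measured smooth muscle markers the average was 9.21 to 9.25 on iPS arrays and 7.31 to 7.78 on ES arrays. Of the 9, 7 were higher in iPS cells (77.8%, against 6.9% of all genes called). The target list shares 7 genes with these marker lists, all 7 higher in iPS cells, and of its 18 other genes 7 were higher. Of all genes 4.44% were called higher. Thy1 (0.42 ± 0.13), Pdgfrb (0.73 ± 0.12) and Pdgfra (-0.78 ± 0.12), surface markers of fibroblasts, were not called. Tgfb1, at 9.61 to 9.69 on fibroblast arrays, was lower in iPS than in ES cells, as was Dcn. The part of feeder cells in the differences of Tgfb1, Tgfb2, Tgfb3 and target genes between iPS and ES cells was not tested.

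Against fibroblasts, day-1 cells had 3 of 9 smooth muscle markers higher, where 3.46% of all genes were. Of 12 fibroblast markers 2 were lower, Dcn and Pdgfra, where 4.33% of all genes were. Macrophage markers, of which 10 were measured, stood on average at 7.09 to 7.28 on day-1 arrays, 6.16 to 6.17 on iPS arrays, 6.12 to 6.21 on ES arrays and 7.29 to 7.52 on fibroblast arrays. Of those 10, 3 were lower in day-1 cells than in fibroblasts (Adgre1, Cd14 and Lyz2) and C1qb was higher (40%, against 7.79% of all genes). In iPS and ES cells 6 of the 10 were lower than in fibroblasts (70% called in each, against 51.3% and 55.6% of all genes). Laptm5 was higher there (2.61 ± 0.12 and 2.53 ± 0.12). The platelet chemokine genes Pf4 and Ppbp together averaged 8.60 to 8.77 on day-1 arrays, 5.01 to 5.39 on iPS arrays, 5.14 to 5.39 on ES arrays and 9.68 to 9.90 on fibroblast arrays. Singly, Ppbp averaged 11.50 in day-1 cells and 12.84 in fibroblasts, and Pf4 5.91 and 6.70. Between these groups Ppbp alone was called. The 4 measured endothelial markers averaged 6.74 to 6.76 on day-1 arrays and 6.45 to 6.64 on fibroblast arrays. Their average was 7.78 to 7.80 on iPS arrays and 7.39 to 7.54 on ES arrays. Of these 4, Pecam1 alone was called against fibroblasts, higher in iPS cells (3.96 ± 0.15) and ES cells (3.01 ± 0.15). Flt1 differed by -0.33 and -0.57 there. The measured genes of the keratinocyte list were only Dsp, Krt8 and Krt18. These 3 averaged 6.32 to 6.47 on day-1 arrays, 7.42 to 7.53 on iPS arrays, 7.41 to 7.76 on ES arrays and 5.74 to 6.11 on fibroblast arrays. Ptprc and Itgam of macrophages, Cdh5 and Kdr of endothelium and Krt5 and Krt14 of keratinocytes were not analysed here. The part of these cell types in the differences of the 4 members was not tested.

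**Figure D5:**
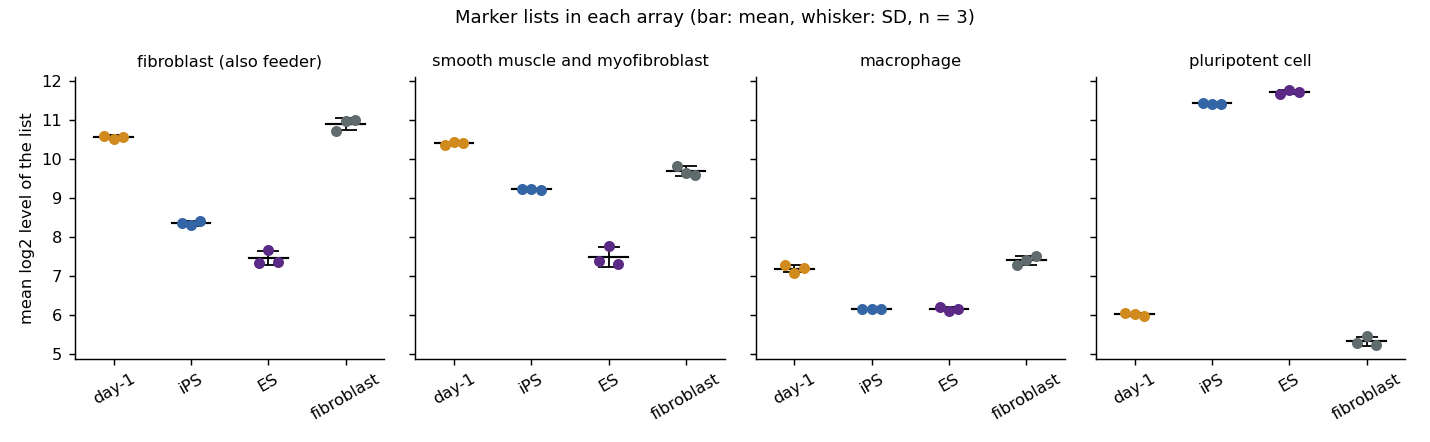
Mean log2 level of the measured genes of 4 marker lists (y axis) on each array of day-1, iPS, ES and fibroblast cells (x axis), with the group mean as a bar and the SD as a whisker. Fibroblast markers lie at 8.31 to 8.43 in iPS arrays and 7.35 to 7.69 in ES arrays, and smooth muscle markers at 9.21 to 9.25 and 7.31 to 7.78.

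The genes most like each member were found by Pearson's r over the 12 arrays, which share 4 group means, so r mainly reads the order and spacing of those means. For Tgfb1 they were Ammecr1 (r = 0.996), Gemin7 (0.991), Foxp1 (0.991), Eloc (0.988) and Hdgfl3 (0.986), and the least like were Ggct (-0.994), Gcdh (-0.989) and Tmem231 (-0.987). The forkhead factor gene Foxp1 averaged 9.94 in day-1 cells, 7.55 in iPS cells, 8.81 in ES cells and 9.76 in fibroblasts, an order that matches that of Tgfb1. For Tgfb2 they were Col4a2 (0.993), Polh (0.989), Col4a1 (0.987), Gpn2 (0.985) and Galnt1 (0.984), with Atp10d (-0.988), N4bp1 (-0.986) and Herc1 (-0.978) at the other end. Col4a1 and Col4a2 encode the main chains of basement membrane collagen, and Col4a2 averaged 9.10 in day-1 cells, 8.70 in iPS cells, 7.65 in ES cells and 8.43 in fibroblasts. For Tgfb3 they were Zadh2 (0.998), the caveolin gene Cav1 (0.998), the vimentin gene Vim (0.997), Ehd2 (0.997) and Ptn (0.997), against Esrp1 (-0.994), Dnmt3a (-0.993) and Setd4 (-0.993). For Tgfbr2 they were Cd81 (0.998), Arhgef25 (0.997), Cemip (0.996), Lrrc15 (0.996) and Pld3 (0.995), against Wdr43 (-0.998), Esco2 (-0.997) and Nol10 (-0.997).

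How common such likeness is differed between the members. Of the other tested genes, 25.3% had an r over 0.9 with Tgfb3 and 28.9% with Tgfbr2, while 7.87% had one with Tgfb1 and 1.08%, or 103 genes, with Tgfb2. Among the members themselves r was 0.933 between Tgfb3 and Tgfbr2, 0.782 between Tgfb2 and Tgfb3, 0.735 between Tgfb1 and Tgfbr2, and 0.286 between Tgfb1 and Tgfb2. Tgfb2, with day-1 cells highest and iPS cells above fibroblasts, thus had the fewest genes of like pattern among the 4.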

How the data were processed

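Per the labels' protocols, RNA of 12 samples was labelled for whole-transcript Affymetrix arrays. The authors deposited 1 table of log2 values for 10360 probe sets. Its scale was read from the range, 2.43 to 13.64, and the sources used here do not give the summary, normalization or filter applied. Each probe set varies by at least 0.51 between arrays, so shares of genes refer to varying genes. The platform annotation gave 1 symbol to 9542 probe sets, which were tested, several to 344 and none to 474, which were not. For 3 genes with several probe sets the one with the highest mean was used, which left 9539.

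Group means over all 12 arrays were compared in R 4.3.3 with limma 3.58.1 (eBayes, Benjamini-Hochberg adjustment over the 9539 genes of each of 6 comparisons). Named genes are the 4 members and Pou5f1, up to 4 called genes per pathway list and comparison by size, the receptors Tgfbr1, Tgfbr3, Acvrl1 and Eng, exceptions of a count, and for each member the 5 highest and 3 lowest r. The text prints part of these, and the other marker and list genes it names were chosen after their values were seen. The members and lists were chosen with earlier results of these data known. The steps were tested on simulated data. The settings tried as alternatives were array weights, a replicate block, a prior that is trended and robust, a fit of the compared groups only, averages over probe sets, quantile normalization, centring of arrays, a filter on the lowest 25% of genes, treat in limma, calls with no fold minimum, and fits that each drop 1 array. Same-numbered arrays of different groups did not deviate together (r of deviations -0.21 to 0.06, against -0.16 to 0.18 for differently numbered arrays). The main fit therefore pairs no samples, but with 3 arrays per group a weak shared effect could be missed. Plots were made in Python 3.11.15 with matplotlib 3.10.9.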

Additional observations from a re-analysis of the deposited data

How the results depend on the processing

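The 24 differences of the 4 members kept their direction under the 10 settings, where a value could be had, and in every fit that left out 1 array. The median difference of all genes was -0.35 in iPS and ES cells against fibroblasts, and -0.18 and -0.12 after quantile normalization, so calls near the 2-fold minimum depend on scaling. For Tgfb1 in ES cells against fibroblasts, the difference was under the minimum after quantile normalization (-0.78) and with centred arrays (-0.68), and ranged from -1.09 to -0.98 when 1 array was left out. For Tgfb2 in ES cells against fibroblasts it was -0.77 with centred arrays. In day-1 cells against fibroblasts, quantile normalization gave 0.95 for Tgfb2 and -0.96 for Tgfbr2, and leaving out 1 array gave 0.97 to 1.05 and -1.09 to -0.95. With no fold minimum, Tgfb1 in day-1 cells against fibroblasts (0.44), Tgfb2 in iPS cells against fibroblasts (0.41) and against day-1 cells (-0.60), and Tgfbr2 in iPS against ES cells (0.75) were called. That setting also raised the genes called to 5449, 8985 and 9050 in day-1, iPS and ES cells against fibroblasts, 5502 in iPS against ES cells, and 8851 and 8914 in iPS and ES cells against day-1 cells, where the 2-fold minimum gave 743, 4897, 5299, 658, 4216 and 4763. Of calls in iPS cells against fibroblasts 42.4% were higher, 52% after quantile normalization and 55.9% with centred arrays, and in ES cells 42.2%, 53% and 58.7%. The corresponding shares were 39.8%, 51.2% and 55.3% in iPS and 40.9%, 51.7% and 58.3% in ES cells against day-1 cells, and 64.4%, 57.5% and 51.4% in iPS against ES cells. With the replicate block Tgfb1 in iPS against ES cells differed by -1.17, and the block changed no call of a member. Tgfb2 is among the lowest 25% of genes by mean and has no value where those are left out. The number of arrays limits the precision, with a median standard error of 0.09.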
